A study of Mus musculus with 4 samples.

Results

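The genes described here encode subunits of voltage-gated calcium channels, 8 pore genes and 2 auxiliary subunit genes, measured in mouse cerebellum. They were taken by gene symbol, with the brightest probe set standing for a gene, and each of the 10 genes had 1 probe set, so 10 of 19505 named genes are described, and 10 of 22206 probe sets. The arrays came from male C57BL/6N mice aged 10 weeks. Clothianidin mice (replicates 6 and 7) had received the neonicotinoid insecticide clothianidin by mouth at 50 mg per kg per day for 4 days, and vehicle mice (replicates 7 and 9) had received the vehicle alone by the same route. On these days all mice performed the rotarod task, in which they balance on a turning rod, and brains were dissected under anaesthesia after it. Each group held 2 samples with 1 array each. Nothing in the labels says that the 2 samples of a group came from separate animals, so the p-values cover only their spread, which may be technical.

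Voltage-gated calcium channels open when a neuron depolarises and let calcium in to trigger transmitter release, dendritic spikes and gene regulation. High-voltage channels (P/Q, N, L and R type) need strong depolarisation and assemble a pore with a beta and an alpha2delta subunit, which bring the pore to the membrane and set its gating. Low-voltage T type channels open near rest, work as pores without obligatory auxiliary subunits, and support rebound bursts. In the cerebellum P/Q type channels carry most of the calcium current of Purkinje cells, and mutations in the P/Q pore, beta4 and alpha2delta-2 genes cause ataxia in the tottering, lethargic and ducky mice.

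Promoter sequences of the members are given as description only, and their relation to the array values was not tested. RefSeq promoter windows of build GRCm38.p6 were found for 7 of the 10 genes, and 1 gene each of the N, L and T types whose groups did not overlap is shown. Only bases upstream of the outermost annotated start are printed, 5′ to 3′ on the strand of the gene, and capitals mark matches to a GC box (GGGCGG) or to the core of the cyclic AMP response element (CRE core, TGACG), searched on both strands.
Cacna1b, N type pore, chr2:24763201-24763402, minus strand: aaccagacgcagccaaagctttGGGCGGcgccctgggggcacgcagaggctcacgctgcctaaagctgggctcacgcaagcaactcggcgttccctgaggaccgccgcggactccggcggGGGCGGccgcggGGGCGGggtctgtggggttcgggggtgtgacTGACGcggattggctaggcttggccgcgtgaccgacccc
Cacna1d, L type pore, chr14:30491157-30491406, minus strand: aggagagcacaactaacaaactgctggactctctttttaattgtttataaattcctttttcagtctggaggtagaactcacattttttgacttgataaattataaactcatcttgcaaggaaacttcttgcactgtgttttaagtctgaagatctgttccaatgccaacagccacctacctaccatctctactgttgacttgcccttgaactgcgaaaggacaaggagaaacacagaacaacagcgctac
Cacna1i, T type pore, chr15:80286988-80287237, plus strand: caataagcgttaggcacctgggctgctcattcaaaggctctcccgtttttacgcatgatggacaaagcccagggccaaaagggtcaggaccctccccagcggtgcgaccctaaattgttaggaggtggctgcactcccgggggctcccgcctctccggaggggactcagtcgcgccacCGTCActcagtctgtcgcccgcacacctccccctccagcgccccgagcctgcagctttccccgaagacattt
The 3 stretches differ in composition. The Cacna1b stretch of 202 bases was 71.8% G and C, with 23 CpG dinucleotides, 3 GC boxes and 1 CRE core. The Cacna1d stretch of 250 bases was 39.6% G and C, with 2 CpG dinucleotides and 0 matches to either motif, and Cacna1d has 2 starts in the table, of which the outer one is shown. The Cacna1i stretch of 250 bases was 62.4% G and C, with 16 CpG dinucleotides, 0 GC boxes and 1 CRE core. Among all 32851 windows of 300 bases, 35.7% held a GC box and 20.8% held the CRE core, while of the 12 windows of the members 5 held a GC box and 3 the CRE core. These matches describe letters in the windows and are not sites of binding.

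The values below are the deposited log2 summaries, where a step of 1 is a doubling if the base is 2. Brightness depends on the probes of each set, so the values are compared between arrays and not between genes. All 10 members had means above 6.01, the 95th percentile of 1414 olfactory and vomeronasal receptor probe sets, which were taken as a guide to background since these receptors belong to sensory neurons. Markers of the labelled tissue were high, with the Purkinje gene Pcp2 at 16.68 and 17.18 on the clothianidin arrays and 16.40 and 16.10 on the vehicle arrays. Midbrain and forebrain markers were not all dim, since Tcf7l2 was at 9.94 and 9.11 on the clothianidin arrays and 11.70 and 9.69 on the vehicle arrays, Otx2 and Neurod6 were above 7 on every array, and Emx1 and Pou4f1 were below 5. The array medians were 6.49 to 6.54, and Pearson's r across probe sets was 0.989 between the clothianidin arrays, 0.987 between the vehicle arrays and 0.986 to 0.989 between groups.

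Most pore genes had higher values with clothianidin, most of all on replicate 6. Of the 10 members, 9 had a higher mean and 1 a lower mean with clothianidin, and the median log2 difference was 0.71, against -0.01 over all 22206 probe sets. A log2 difference above 0 was seen for 48.4% of all probe sets, and for 58.6% of those with a mean not below the median of all means, as the members had. None of the members passed limma's test across all probe sets (0 of 10 at an adjusted p of 0.05, all with adjusted p = 0.997), and neither did any other probe set, so that the background was 0% called. At an unadjusted limma p of 0.05, 3 of the 10 members were called, all higher, beside 2.30% of all probe sets called higher and 4.23% called in either direction. Clothianidin replicate 6 was the highest of the 4 arrays for 9 of the 10 members, beside 26.2% of all probe sets and 35.5% of the brighter ones. In a bulk sample more cells of a type and more RNA per cell cannot be told apart.

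**Figure D1:**
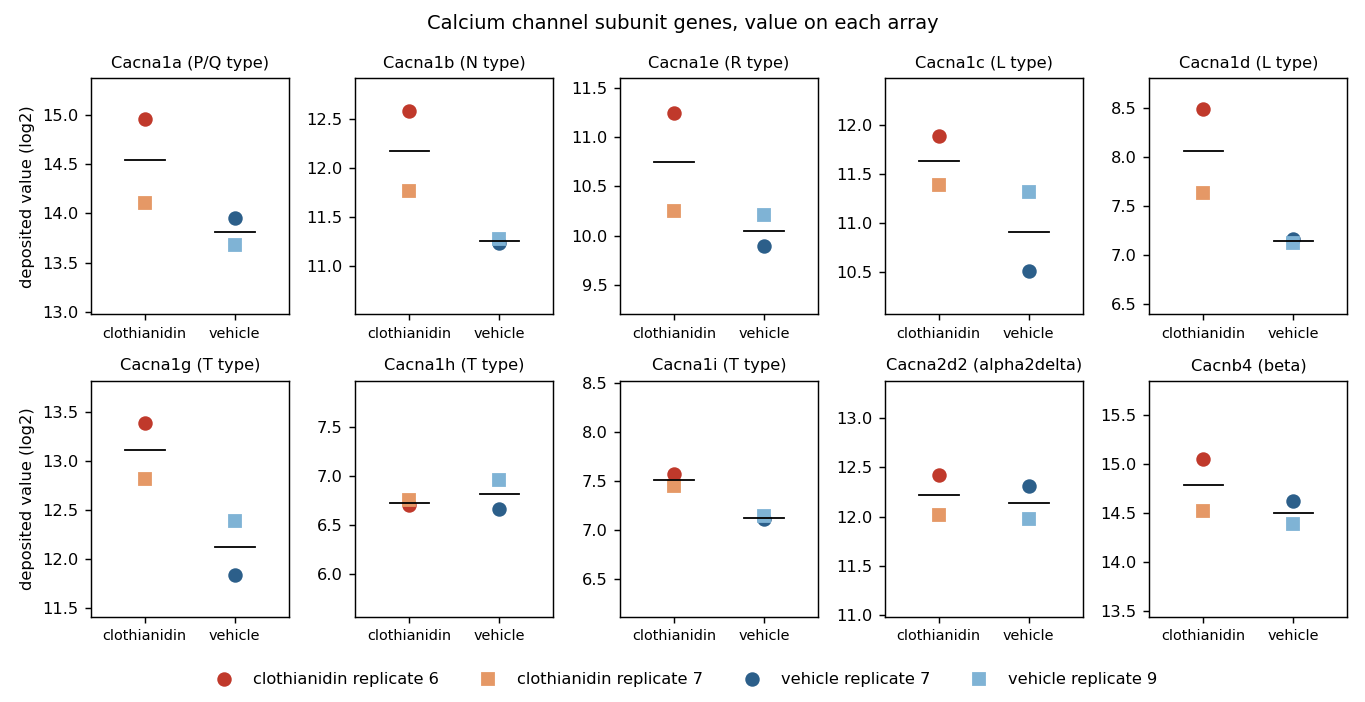
Deposited log2 value of each calcium channel gene on each array, with clothianidin on the left and vehicle on the right, points for single arrays and bars for group means (n = 2). Each panel spans the same height in log2 units, and clothianidin replicate 6 is the highest point in 9 of the 10 panels.

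The P/Q type pore gene Cacna1a, whose channel drives release at parallel fibre synapses as well as Purkinje dendritic calcium, was at 14.96 and 14.11 on clothianidin replicates 6 and 7, and at 13.95 and 13.68 on vehicle replicates 7 and 9. The groups did not overlap, but clothianidin replicate 7 lay only 0.16 above the higher vehicle array. The log2 difference was 0.72 (standard error 0.35, 95% interval -0.08 to 1.52, limma adjusted p = 0.997). Without clothianidin replicate 6 it was 0.29, and without clothianidin replicate 7 it was 1.15.

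Cacna1b, the pore gene of the N type channel that supports transmitter release at many central terminals, was at 12.58 and 11.76 on the clothianidin arrays and at 11.23 and 11.27 on the vehicle arrays. Both clothianidin values were above both vehicle values, with a gap of 0.49, the widest among the members. Its mean was 12.17 ± 0.58 with clothianidin and 11.25 ± 0.03 with vehicle (SD, n = 2 each), a log2 difference of 0.92 (standard error 0.34, 95% interval 0.15 to 1.69, limma unadjusted p = 0.0254, adjusted p = 0.997). Without clothianidin replicate 6 the difference was 0.51.

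Cacna1e, the R type pore gene, was at 11.25 and 10.25 on the clothianidin arrays and at 9.89 and 10.21 on the vehicle arrays. Clothianidin replicate 6 stood alone here, since clothianidin replicate 7 lay 0.04 above vehicle replicate 9. The log2 difference was 0.70 (standard error 0.37, limma adjusted p = 0.997), and 0.20 without clothianidin replicate 6.

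Both L type pore genes among the members were higher with clothianidin, with different scatter. Cacna1c, which also forms the main calcium channel of heart and vascular smooth muscle, was at 11.88 and 11.38 on the clothianidin arrays and at 10.51 and 11.31 on the vehicle arrays. The vehicle arrays differed more from each other than clothianidin replicate 7 did from vehicle replicate 9, and the gap between groups was 0.07. Its log2 difference of 0.72 (standard error 0.35, limma adjusted p = 0.997) became 0.32 without vehicle replicate 7 and 0.47 without clothianidin replicate 6.

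Cacna1d, whose L type channel opens at less depolarised voltages than that of Cacna1c and supports pacemaking, was at 8.49 and 7.63 on the clothianidin arrays and at 7.16 and 7.12 on the vehicle arrays. The vehicle arrays were close together and both clothianidin arrays lay above them by at least 0.47. The log2 difference was 0.92 (standard error 0.34, 95% interval 0.13 to 1.71, limma unadjusted p = 0.0274, adjusted p = 0.997), and 0.49 without clothianidin replicate 6. Taken as a class, the 5 high-voltage pore genes had log2 differences of 0.70 to 0.92, and all 5 had groups that did not overlap, beside 15.1% of all probe sets not overlapping with clothianidin higher. Among probe sets with a mean not below the median of all means that share was 20.9%. After a further quantile normalization 3 of the 5 did not overlap, since Cacna1e and Cacna1c then overlapped. The share of all probe sets not overlapping with clothianidin higher was then 16%.

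The 3 T type pore genes had log2 differences from -0.09 to 0.99. Cacna1g, the T type gene most associated with Purkinje cells and the cerebellar nuclei, was at 13.39 and 12.82 on the clothianidin arrays and at 11.84 and 12.39 on the vehicle arrays. Its mean was 13.11 ± 0.40 with clothianidin and 12.12 ± 0.39 with vehicle (SD, n = 2 each). The log2 difference, 0.99, was the largest of the members (standard error 0.33, 95% interval 0.23 to 1.75, limma unadjusted p = 0.0174, adjusted p = 0.997). Without clothianidin replicate 6 it was 0.70 and without vehicle replicate 7 it was 0.71, so it depended less on a single array than the high-voltage genes Cacna1a and Cacna1e did.

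Cacna1i, a T type gene of slower channel kinetics, was at 7.57 and 7.45 on the clothianidin arrays and at 7.12 and 7.15 on the vehicle arrays. The groups were apart by 0.30 and tight within themselves, and the log2 difference of 0.38 (standard error 0.27, limma adjusted p = 0.997) ranged from 0.32 to 0.43 when 1 array was left out. Cacna1h was at 6.70 and 6.75 on the clothianidin arrays and at 6.66 and 6.96 on the vehicle arrays, so its clothianidin values lay between its vehicle values. Its log2 difference was -0.09 (95% interval -0.72 to 0.55, limma adjusted p = 0.997). The interval does not show that Cacna1h was the same in both groups.

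The auxiliary subunit genes overlapped between groups. Cacnb4, the beta subunit gene mutated in lethargic mice, was at 15.05 and 14.52 on the clothianidin arrays and at 14.62 and 14.39 on the vehicle arrays, with clothianidin replicate 7 below vehicle replicate 7. Its log2 difference was 0.28 (95% interval -0.42 to 0.98, limma adjusted p = 0.997), and 0.01 without clothianidin replicate 6. Cacna2d2, the alpha2delta subunit gene mutated in ducky mice, was at 12.42 and 12.02 on the clothianidin arrays and at 12.31 and 11.98 on the vehicle arrays. Its log2 difference was 0.07 (95% interval -0.61 to 0.76, limma adjusted p = 0.997), and it took either sign when 1 array was left out, from -0.12 to 0.28.

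**Figure D2:**
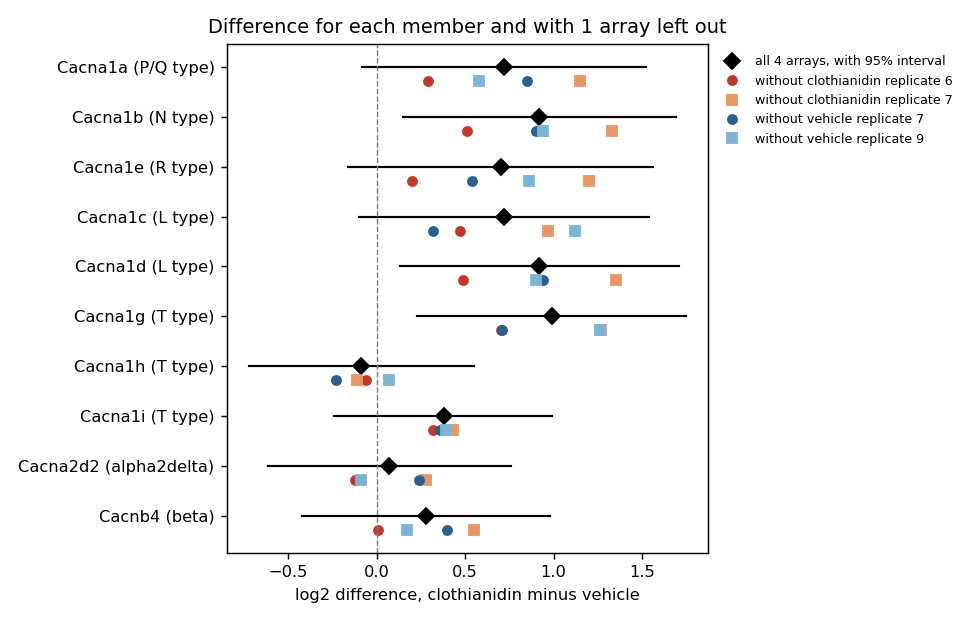
Log2 difference of each calcium channel gene, clothianidin minus vehicle, with all 4 arrays (diamonds, bars for 95% limma intervals) and with 1 array left out (coloured points). Leaving out clothianidin replicate 6 moves the 5 high-voltage pore genes toward 0, to between 0.20 and 0.51, and Cacna1i stays between 0.32 and 0.43.

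Differences between members were tested for 3 pairs with an exact permutation test over the arrays, two-sided, on the log2 ratio of the pair within each array. With 2 arrays against 2 the exact test cannot give a p below 0.333. Cacna1g was 1.08 higher with clothianidin relative to Cacna1h, Cacna1a was 0.44 higher relative to Cacnb4, and Cacna1a was 0.65 higher relative to Cacna2d2. Without clothianidin replicate 6 these changes were 0.77, 0.28 and 0.42. In all 3 pairs the ratios of the groups did not overlap, which gave the smallest possible value (exact p = 0.333, adjusted over the 3 pairs p = 0.333). The pairs were chosen with the values known, and the data do not decide whether pore and auxiliary genes differ in their response.

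Groups did not overlap for 7 of the 10 members, all higher with clothianidin, beside 15.1% of all probe sets and 20.9% of those with a mean not below the median of all means. The count was 5 after quantile normalization, beside 16% of all probe sets with clothianidin higher. A difference of at least 1.5-fold with no overlap was present for 6 of the 10 members, beside 4.04% of all probe sets and 6.26% of the brighter ones. The members were measured on the same arrays, so 7 genes are not 7 separate observations. The median deviation of the 10 genes from their own means was 0.695 on clothianidin replicate 6 and 0.01 on clothianidin replicate 7, against -0.33 on vehicle replicate 7 and -0.21 on vehicle replicate 9. The 5 high-voltage pore genes deviated by 0.85 and 0.03 on clothianidin replicates 6 and 7 and by -0.48 and -0.44 on vehicle replicates 7 and 9. The median log2 difference of the 10 members was 0.305 without clothianidin replicate 6, where 8 of 10 were higher, and 1.06 without clothianidin replicate 7, where 9 of 10 were higher. Without vehicle replicate 7 it was 0.47 and without vehicle replicate 9 it was 0.72.

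Granule cell and interneuron markers also stood highest on clothianidin replicate 6. Of 9 measured granule cell markers 7 were higher with clothianidin, and their median deviation was 0.505 and -0.13 on clothianidin replicates 6 and 7, against -0.07 and -0.39 on vehicle replicates 7 and 9. The level summed over these markers on the linear scale was, in log2, 19.59 and 19.09 on the clothianidin arrays and 19.22 and 18.94 on the vehicle arrays. Of 8 molecular layer and Golgi interneuron markers 7 were higher. Their log2 summed levels, which rest mostly on Kit, were 15.72 and 15.23 on the clothianidin arrays and 14.98 and 15.18 on the vehicle arrays. Their median deviation was 0.32 and -0.195 on clothianidin replicates 6 and 7, against -0.045 and -0.12 on vehicle replicates 7 and 9. By that measure clothianidin replicate 7 was the lowest array. Their median log2 difference was -0.115 without clothianidin replicate 6. Of 8 measured Purkinje markers 7 were higher, with log2 summed levels of 19.32 and 19.47 on the clothianidin arrays and 19.17 and 19.03 on the vehicle arrays, so that here clothianidin replicate 7 was the highest. None of these markers was at 0. The dimmest were Slc1a6 for Purkinje cells, Reln for granule cells and Sorcs3 for interneurons, with means of 13.35, 11.98 and 7.96. All 8 measured oligodendrocyte markers had a lower mean with clothianidin, with log2 summed levels of 17.79 and 17.41 on the clothianidin arrays and 17.83 and 17.61 on the vehicle arrays. Groups did not overlap for 2 of the 8, beside 15.5% of all probe sets with clothianidin lower. Mbp, the brightest of these markers, had a log2 difference of -0.01. Of 7 choroid plexus markers 5 were higher, with log2 summed levels of 9.63 and 14.06 on the clothianidin arrays and 9.77 and 9.38 on the vehicle arrays, where the transthyretin gene Ttr was at 13.96 on clothianidin replicate 7. Vehicle replicate 7, the lowest array for Cacna1c and Cacna1g among other members, had the highest summed level in some marker lists. For midbrain and forebrain markers the log2 summed level was 10.47 and 9.97 on the clothianidin arrays and 11.87 and 10.28 on the vehicle arrays. For oligodendrocyte precursor markers it was 9.94 and 10.07 on the clothianidin arrays and 10.88 and 9.72 on the vehicle arrays. These sums rest mostly on the brightest marker, which was Tcf7l2 at 11.70 and Olig2 at 10.57 on vehicle replicate 7. The median deviation on that array was 0.07 for midbrain and forebrain markers. For precursor markers it was 0.20, against 0.12 on clothianidin replicate 6. The brainstem and nuclei list had 4 markers higher and 3 lower with clothianidin, and a median log2 difference of 0.04. Its glutamate transporter gene Slc17a6 was at 8.02 and 8.13 on the clothianidin arrays and 9.57 and 8.62 on the vehicle arrays. Th of the same list went the other way, at 8.07 and 7.74 on the clothianidin arrays and 7.03 and 6.93 on the vehicle arrays. The part of these cell types in the values of the calcium channel genes was not tested.

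**Figure D3:**
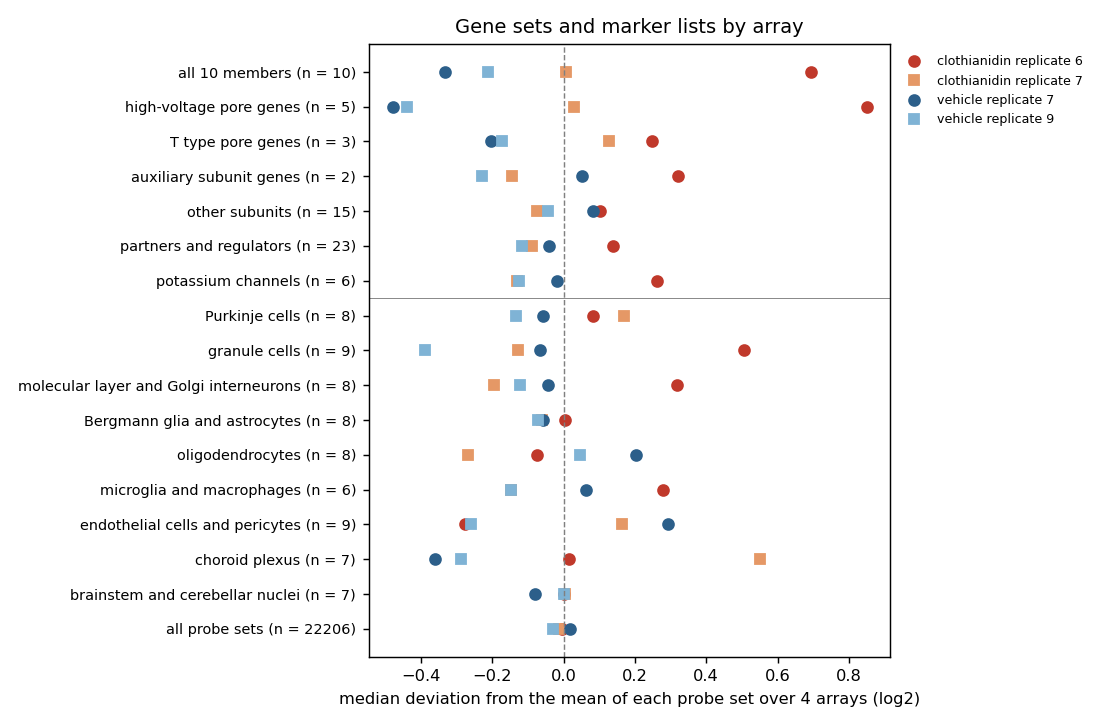
Median deviation, on each array, of the probe sets of a gene set or cell type marker list from their own means over the 4 arrays (log2), above the line for calcium channel genes and related lists and below it for marker lists and all probe sets. Clothianidin replicate 6 lies farthest right for the 10 members (0.695) and the granule cell markers (0.505), and near 0 for all probe sets.

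The calcium channel genes are long genes. Their annotated spans ran from 62 to 610 kb with a median of 204 kb (RefSeq, GRCm38.p6), against a median of 26.8 kb over 9911 probe sets with a known span and a mean not below the median of all means, out of 11106 at that level. Array and length moved together across these probe sets. Clothianidin replicate 6 was the highest array for 20.2% of genes under 10 kb and for 60.2% of genes of 300 kb or more. Groups did not overlap, with clothianidin higher, for 18% of the genes under 10 kb and 26% of those of 300 kb or more, and the difference was above 0 for 57.7% and 68.5%. Genes of 300 kb or more (n = 384), which include Cacna1a, Cacna1c, Cacna1d and Cacna1e, had a median log2 difference of 0.13 with all arrays and -0.02 without clothianidin replicate 6. Those 4 members had 0.70 to 0.92 with all arrays, and 0.20 to 0.49 without clothianidin replicate 6. The shortest members, Cacna1g and Cacna1h at 66 and 62 kb, were still above the median span of 26.8 kb and had log2 differences of 0.99 and -0.09. In their class of 30 to 100 kb, clothianidin replicate 6 was the highest array for 43.4% of probe sets. This comparison by length was chosen after the data were seen, and the part of gene length in the values of the members was not tested.

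**Figure D4:**
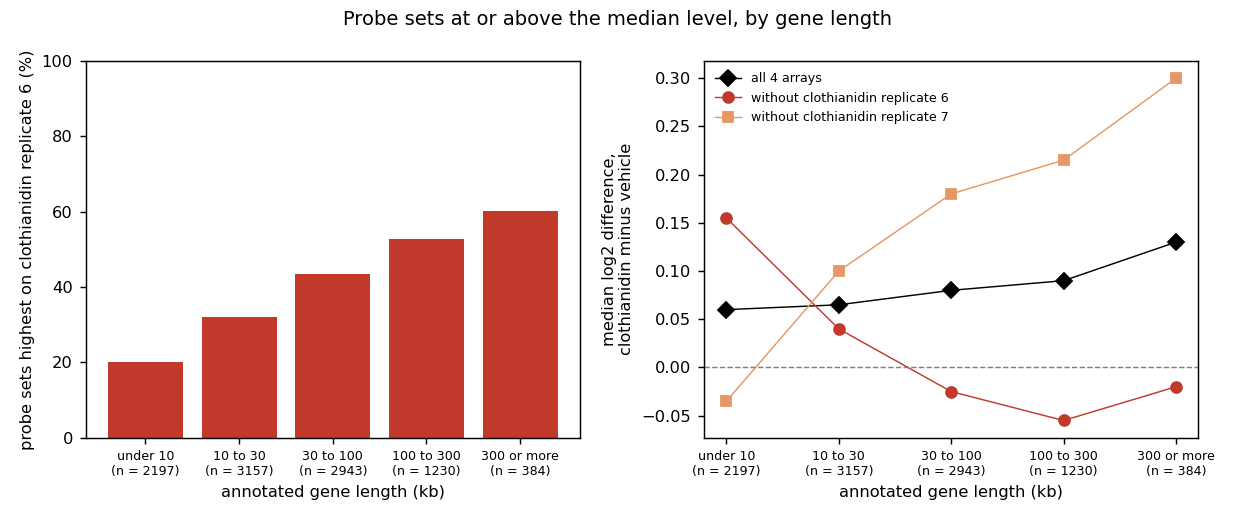
Probe sets with a mean not below the median of all means, grouped by annotated gene length in kb. The left panel gives the percentage whose highest array was clothianidin replicate 6, from 20.2% to 60.2%, and the right panel gives the median log2 difference, clothianidin minus vehicle, with all arrays and without either clothianidin array.

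Of 16 other calcium channel subunit genes 15 were measured, with 8 higher and 7 lower with clothianidin, a median log2 difference of 0.05, and 0 passing limma at the adjusted threshold or at an unadjusted p of 0.05. Groups did not overlap for 5 in the higher direction and 3 in the lower, where the background was 15.1% and 15.5% of all probe sets. Of these genes 5 (Cacna1f, Cacna1s, Cacna2d4, Cacng1 and Cacng6) lay below the guide to background of 6.01. Cacna1f and Cacna1s, which also encode L type pores, had log2 differences of -0.29 and 0.06. The 10 genes above the guide had 6 higher and 4 lower, with a median log2 difference of 0.18. Groups of these 10 did not overlap for 4 in the higher direction and 1 in the lower. Cacng5, of the family of transmembrane proteins that traffic AMPA receptors, was at 10.15 and 9.54 on the clothianidin arrays and at 9.09 and 9.28 on the vehicle arrays, a log2 difference of 0.66 that was 0.35 without clothianidin replicate 6. Its relative Cacng8 had 0.41, or 0.27 without vehicle replicate 9, and Cacng3 had -0.41, or -0.16 without vehicle replicate 7 and -0.66 without vehicle replicate 9. Cacna2d1, the alpha2delta gene whose product binds gabapentin, was at 9.76 and 8.79 on the clothianidin arrays and at 9.06 and 8.60 on the vehicle arrays, so only clothianidin replicate 6 was above both vehicle arrays, and its log2 difference of 0.45 was -0.04 without that array. These 4 genes had limma adjusted p = 0.997.

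Genes of proteins that hold or tune calcium channels were mixed. Of 26 listed partners and regulators 23 were measured, 13 higher and 10 lower, with a median log2 difference of 0.065 and 0 called by limma at either threshold. Gem, Rrad and Stx1a, all counted as lower, were below the background guide of 6.01 on every array. Rims1, the active zone scaffold that tethers P/Q and N type channels to vesicles, was at 14.62 and 14.11 on the clothianidin arrays and at 13.87 and 13.81 on the vehicle arrays, a log2 difference of 0.53 that was 0.27 without clothianidin replicate 6. Cabp1, a calcium sensor that modulates channel inactivation, had 0.51, the calmodulin gene Calm2 0.47 and the active zone gene Erc2 0.45. These 4 genes were named for the smallest p in the list. In all 4 both clothianidin arrays were above both vehicle arrays, with limma adjusted p = 0.997. Over the 23 measured genes, groups did not overlap for 5 with clothianidin higher and 1 with clothianidin lower. The background was 15.1% and 15.5% of all probe sets. The list's median was -0.075 without clothianidin replicate 6.

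Among potassium channels that calcium entry opens or that pair with calcium channels, 6 of 7 were measured, 5 higher and 1 lower, with a median log2 difference of 0.185 that was -0.09 without clothianidin replicate 6. Kcnn1, a small-conductance calcium-activated channel gene, was at 6.64 and 6.80 on the clothianidin arrays and at 7.28 and 7.02 on the vehicle arrays. Its log2 difference was -0.43. Kcnmb4, the neuronal beta subunit gene of the large-conductance channel, was at 8.32 and 8.33 on the clothianidin arrays and at 7.99 and 8.01 on the vehicle arrays. Both had limma adjusted p = 0.997. Of the 6 measured, groups did not overlap for 1 with clothianidin higher and 1 with clothianidin lower, beside 15.1% and 15.5% of all probe sets.

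Genes with a profile like that of the members were sought by the root mean square difference over the 4 arrays, with the values of each gene centred on their own mean. Candidates were named probe sets with a mean not below the median of all means and a range over the arrays of at least 0.5 times that of the profile, predicted genes and clone names left out. The mean profile of the 10 members was 0.56 and 0.00 on clothianidin replicates 6 and 7 and -0.34 and -0.22 on vehicle replicates 7 and 9. The nearest of 7189 candidates was Ppargc1b, a transcriptional coactivator gene of mitochondrial metabolism, at 0.014, followed by Rbms1 at 0.020, Nfat5 at 0.025, Adgrb1 at 0.030 and Nsg2 at 0.033. For Cacna1g, the member with the smallest p, the nearest of 3467 candidates were Cep170 at 0.053, Tnrc18 at 0.055, Lncpint at 0.064, the neurotrophin receptor gene Ntrk3 at 0.066 and the postsynaptic scaffold gene Shank2 at 0.073. With 4 arrays many profiles lie close by, and 124 candidates were within 0.1 of the mean profile.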

How the data were processed

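Total RNA of 4 cerebellum samples was amplified and biotin-labelled for Affymetrix whole-transcript arrays, per the labels' protocols. The authors deposited log2 probe set summaries, and the submitters' processing notes name RMA, with version and settings not given in the sources used here. Base 2 is assumed. The highest deposited value, 19.91, exceeds the 16 that a 16-bit scan gives in log2, so a further transformation may be in the scale and folds rest on this reading. Signal over background is unknown, and the number of arrays limits the precision.

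Probe sets were named by a platform annotation, in which 2634 of 22206 had no symbol and 0 had several. Differences were fitted with limma 3.58.1 in R 4.3.3 (lmFit and eBayes, all probe sets, Benjamini-Hochberg at 0.05), and the fit was tested on simulated data. The prior SD was 0.306 with 5.96 prior and 2 residual degrees of freedom. The members, the lists and the tests were chosen with earlier results of these data known.

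Genes outside the members were named by rule: other subunits at an unadjusted p of 0.05 (of which there were 0), otherwise the 4 other subunits, 4 partners and 2 potassium channels with the smallest p, and the 5 nearest profiles for the mean profile and for the member with the smallest p. Cell type markers are given as lists, and the single markers named were chosen after their values were seen. Summed levels are sums of 2 to the power of the value, given in log2. Alternatives were median centring, quantile normalization, filters on level, 1 probe set per gene, other variance priors, other thresholds and leaving out each array. Genes of the lists that the arrays' named probe sets did not match, such as Cacnb3, were not analysed here.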

Additional observations from a re-analysis of the deposited data

How the results depend on the processing

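With 0 probe sets passing limma's adjusted threshold, leaving out clothianidin replicate 6 gave 1 call and a linear model without moderation gave 8, none of them a member, and an unadjusted p of 0.05 gave 940, of which 3 were members (Cacna1b, Cacna1d and Cacna1g). With 1 array left out the count over all probe sets was 0 to 1 and the count of members passing was 0 in each case. The median log2 difference of the members was 0.71 and ranged from 0.305 without clothianidin replicate 6 to 1.06 without clothianidin replicate 7. The count of members whose groups did not overlap was 7, beside 15.1% of all probe sets with clothianidin higher. After quantile normalization it was 5, beside 16%. Shares over brighter probe sets, subunits above the background guide and pairs with 1 array left out were added after the data were seen. The sign of Cacna1h turned to 0.07 without vehicle replicate 9, in a range of -0.23 to 0.07. Cacna2d2 turned to -0.02 after quantile normalization and ranged from -0.12 without clothianidin replicate 6 to 0.28 without clothianidin replicate 7. No other member changed sign under any alternative run. Each member had 1 probe set, so averaging probe sets could change nothing. A fit without 1 array has a single array in 1 group, which is taken to vary like the other group. No paired analysis was possible because the groups share only 1 replicate number.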

Other observations

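The comparison by gene length also held values for shorter genes. Between 10 and 30 kb, clothianidin replicate 6 was the highest array for 32.1% of probe sets, between 30 and 100 kb for 43.4% and between 100 and 300 kb for 52.8%. Genes under 10 kb deviated by -0.05 and 0.11 on clothianidin replicates 6 and 7 and by 0.07 and -0.15 on vehicle replicates 7 and 9, while genes of 300 kb or more deviated by 0.24 and -0.09 on the clothianidin arrays and by -0.01 and -0.14 on the vehicle arrays. Without clothianidin replicate 7 the median log2 difference was -0.035 for genes under 10 kb and 0.30 for genes of 300 kb or more, and without clothianidin replicate 6 it was 0.155 and -0.02.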
